A study of Drosophila melanogaster with 9 samples.

Results

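The 5 genes described here encode sodium-coupled transporters of the SLC5 family in the brain of Drosophila melanogaster: kumpel (CG42235), rumpel (CG9657), bumpel (CG6723), SLC5A11 and ChT. They are defined by their names and were matched by symbol or CG number to 5 of the 17489 gene identifiers in the files. RNA was measured by sequencing of ribosome-depleted libraries from the central brains of refed, sated and fasted flies. Each group held 3 samples, and each sample was a pool of 10 brains. All groups were male flies of the strain w1118CS at 7 days of age, and all titles carry the study's abbreviation for its control diet. Refed and fasted flies were kept from 5 PM on wet tissue without food. At lights on, at 9 AM, refed flies were given 400 mM D-glucose for 2 h, while fasted flies were kept without food for 20 h in all. Sated flies were kept without food for 1 h before dissection. These times come from the sample records, while the results text of the study gives a shorter time after feeding for the RNA data, so the refeeding time is not certain. The sample records mention 4 biological replicates per condition, of which 3 are analysed here.

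SLC5 transporters move small solutes into cells together with sodium ions, and the sodium gradient that drives them is kept up by the sodium pump. Kumpel, rumpel and bumpel are known from the ensheathing glia, which wrap the neuropil. SLC5A11, also called cupcake, has been linked in flies to the sensing of nutritive sugar and to hunger, through neurons of the ellipsoid body and the potassium channel KCNQ. ChT is the high-affinity choline transporter that brings choline back into cholinergic terminals for the synthesis of acetylcholine, the main excitatory transmitter of the fly brain.

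Transcripts of all 5 genes were detected in all 9 libraries, and no gene passed the test in any of the 3 comparisons of feeding state. Kumpel, rumpel and bumpel had their highest group means in sated brains. Kumpel was the only one of the 5 that one of the tools, DESeq2, called in a comparison, that of sated with fasted brains. SLC5A11 and ChT had nearly the same mean level in all groups.

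Counts on the strand of the gene numbered between 4957138 and 7897838 per library. Opposite-strand counts made up 9.59% to 12.4% of all stranded gene counts in 6 libraries. They reached 24.6% and 28.5% in fasted replicates 1 and 2, and 20.6% in sated replicate 2. Neuronal markers (elav, nSyb, brp, Syt1 and Syn) summed to between 7286 and 8370 CPM, and 12 glial genes to between 2812 and 3277 CPM, where CPM are counts scaled to library size by the TMM method. The 8 photoreceptor genes were also present, although the labelled tissue is the central brain. Their sum was between 2002 and 2185 CPM in sated libraries, above the 1489 to 1709 CPM of refed and the 1273 to 1787 CPM of fasted libraries. A large part of this sum was norpA alone, at 661 to 891 CPM over the libraries. Another of the 8, ninaE, ranged from 2.76 to 292 CPM and did not follow the groups. The 7 fat body genes summed to between 1732 and 2417 CPM in sated libraries, against 1018 to 1487 CPM in refed and 1260 to 1511 CPM in fasted ones. Nearly all of this sum was apolpp, the lipoprotein precursor, while Lsp1alpha had no count in any library and Lsp2, fit and Lsp1gamma had 10, 9 and 6 counts in all. The 4 hemocyte genes summed to between 77.9 and 186 CPM, and the 5 muscle genes to between 19.7 and 296 CPM, with the highest value in a fasted library.

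The gene models differ in ways that bear on the counts. Kumpel (FBgn0250757) lies on the plus strand of chromosome arm 3R, from 25907022 to 25921046 in the BDGP6 assembly. It has 5 annotated transcripts of 2328 to 2561 bases that start at the same position and end at different ones, and each shares only between 36.6% and 43.7% of its bases with the others. Its merged exons therefore cover 8363 bases, and the model takes in 5 earlier gene models, among them CG8932 and CG31090. Rumpel (FBgn0029950) lies on X from 7418594 to 7422142, on the plus strand, with 2557 bases of exon. Bumpel (FBgn0037895) lies on 3R from 11416218 to 11418668, on the minus strand, with 1990 bases of exon. No other annotated exon overlaps those of rumpel or bumpel, and the exons of kumpel overlap CG14546, on the opposite strand, by 5 bases.

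SLC5A11 (FBgn0031998) lies on the minus strand of 2L, from 8200465 to 8205132, with 2660 bases of exon. Of these, 1337 bases, or 50.3%, lie opposite exons of other genes, 1149 of them opposite asRNA:CR44119 and 188 opposite PGAP5. ChT (FBgn0038641) lies on the plus strand of 3R from 18680604 to 18686739, with 4748 bases of exon in 2 transcripts. The gene model CG46318 shares 3299 of these bases on the same strand and is not among the identifiers of the files, so reads of either model could have been counted on ChT.

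The 3 glial transporters were moderately abundant. Kumpel was at 104, 109 and 112 CPM in refed replicates 1, 2 and 3, at 120, 125 and 139 CPM in sated ones and at 107, 98.9 and 115 CPM in fasted ones. The lowest sated library was above the highest refed and fasted libraries, while refed and fasted libraries overlapped. Rumpel was at 108, 102 and 117 CPM in refed, 117, 134 and 110 CPM in sated and 102, 119 and 108 CPM in fasted libraries. Its groups overlapped in every comparison, and its highest value came from sated replicate 2, one of the 3 libraries with a high opposite-strand share. Bumpel was at 72.5, 62.1 and 70.2 CPM in refed, 69.4, 72.0 and 80.7 CPM in sated and 63.0, 67.1 and 65.2 CPM in fasted libraries. All sated libraries were above all fasted ones for bumpel, and refed libraries overlapped both groups.

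SLC5A11 was the least abundant of the 5 and ChT the most abundant. SLC5A11 was at 28.8, 29.1 and 27.4 CPM in refed, 26.0, 24.3 and 30.5 CPM in sated and 28.4, 29.2 and 25.5 CPM in fasted libraries, from 139 to 239 counts per library. ChT was at 533, 569 and 538 CPM in refed, 522, 536 and 553 CPM in sated and 558, 502 and 576 CPM in fasted libraries, from 2509 to 4503 counts. The groups overlapped for both genes in every comparison. Over all 9 libraries the highest value was 1.15 times the lowest for ChT and 1.26 times for SLC5A11, against 1.30 for bumpel, 1.32 for rumpel and 1.41 for kumpel.

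**Figure D1:**
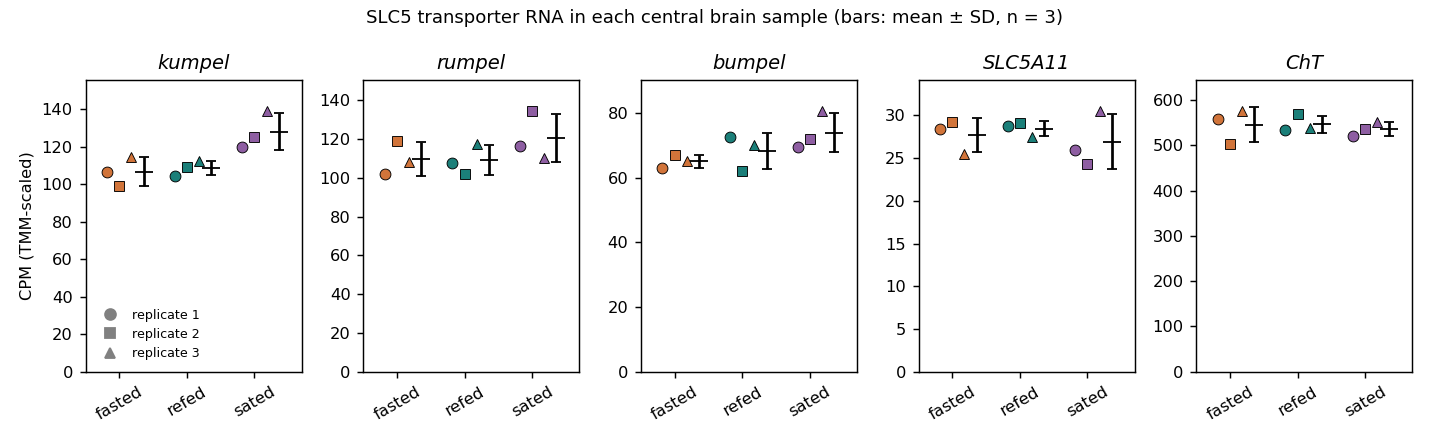
Level of each transporter gene in CPM (y axes, starting at 0) in the refed, sated and fasted brains, with a point for each of the 3 samples per group and the group mean with its SD. The 3 sated samples of kumpel sit between 120 and 139 CPM, above all 6 others, while the groups of SLC5A11 and ChT overlap throughout.

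Counting error set a lower limit on the precision of these values. For ChT it came to between 1.56% and 1.78% of the level in a library, for kumpel and rumpel to between 3.44% and 4.03%, for bumpel to between 4.42% and 5.12%, and for SLC5A11 to between 6.84% and 7.82%. The spread of SLC5A11 between refed samples, a SD of 0.05 on the log2 scale, was below its counting error of 0.10 on the same scale. The same held for SLC5A11 between fasted samples, at 0.106 against 0.113. For bumpel the spread between fasted samples, 0.046, was below its counting error of 0.074. The reads carried no molecular identifiers and are not independent molecules, so these values cover counting error only.

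The first comparison set brains of flies given glucose after a fast against brains of flies that stayed without food. By the sample records, refed flies were given glucose from 9 AM, while fasted flies went 20 h without food from 5 PM. By these times the groups also differed in length of fast and hour of dissection. Neither can be told apart from the glucose. None of the 5 transporters differed between refed and fasted brains with edgeR's quasi-likelihood test at a Benjamini-Hochberg adjusted p of 0.05, where 0.111% of the 9025 genes tested passed. Without adjustment none had a p-value under 0.05, against 6.77% of all genes, and DESeq2 called none. Refed and fasted libraries overlapped for all 5, while they did not for 12.1% of all genes. The log2 fold changes, refed over fasted, were 0.00 for kumpel, -0.02 for rumpel, 0.05 for bumpel, 0.03 for SLC5A11 and -0.02 for ChT. Their standard errors (SE) were 0.06, 0.07, 0.07, 0.09 and 0.06 in the same order. The median over the 5 genes was 0.00, and over all genes tested it was -0.01, with a median absolute value of 0.09.

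The width of the intervals says how large a change could have gone unseen. For ChT the 95% interval of the refed over fasted change, for the gene alone and not adjusted, ran from -9.46% to 8.03%. For kumpel it ran from -8.66% to 10.2%, and for SLC5A11 from -11.3% to 16.8%. All 5 intervals lay between -12.4% and 16.8%. Adjusted p-values, by edgeR's quasi-likelihood test, ran from 0.905 for bumpel to 0.998 for kumpel.

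Sated and fasted brains were compared to set ordinary feeding against a 20 h fast. The sample records give no clock time for sated flies, so a difference in hour of dissection cannot be told apart from feeding state. No transporter passed edgeR's quasi-likelihood test here either, where 0.268% of the 8957 genes did. Without adjustment kumpel and bumpel had p-values under 0.05, and 9.72% of all genes did so in either direction. Kumpel averaged 128 ± 9.84 CPM (SD, n = 3) in sated and 107 ± 7.79 CPM (SD, n = 3) in fasted brains. The log2 fold change was 0.26 (SE 0.07, edgeR quasi-likelihood adjusted p = 0.211), with a 95% interval of 7.70% to 33.0% for the gene alone, and its p-value ranked 154 of 8957.

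DESeq2 called kumpel in this comparison, at 0.26 on the log2 scale and an adjusted p of 0.0403. This was the one call for the 5 transporters among 17 alternatives to each comparison. The log2 fold change of kumpel was between 0.19 and 0.31 over these alternatives. It was 0.19 (SE 0.10, edgeR quasi-likelihood adjusted p = 0.946) without the 3 libraries of high opposite-strand share, in a fit that kept 1 fasted library and took it to vary like the others. With DESeq2's 110 calls in this comparison against 24 from edgeR, the kumpel call depended on the tool.

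Bumpel averaged 74.0 ± 5.92 CPM (SD, n = 3) in sated and 65.1 ± 2.07 CPM (SD, n = 3) in fasted brains. Its spread between fasted samples was below its counting error there. The log2 fold change was 0.19 (SE 0.07, edgeR quasi-likelihood adjusted p = 0.435), with a 95% interval of 1.97% to 26.8% for the gene alone. Rumpel averaged 120 ± 12.5 CPM (SD, n = 3) in sated and 110 ± 8.62 CPM (SD, n = 3) in fasted brains, or 0.13 on the log2 scale (SE 0.08, edgeR quasi-likelihood adjusted p = 0.665). Kumpel and bumpel were the members whose sated libraries were all above the fasted ones, an arrangement found for 7.69% of all genes tested. Of the 8 photoreceptor genes, all but ninaE had an unadjusted p-value under 0.05 in this comparison, against 9.72% of all genes. These 7 had higher values in sated brains, and DESeq2 called norpA. The lipoprotein gene apolpp was at 0.61 (edgeR quasi-likelihood adjusted p = 0.0623) and was called by DESeq2. The part of these genes in the values of kumpel and bumpel was not tested.

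SLC5A11 and ChT had small values of the opposite sign. For SLC5A11 the log2 fold change of sated over fasted brains was -0.03 (SE 0.11, edgeR quasi-likelihood adjusted p = 0.950) and its 95% interval ran from -17.1% to 15.4%. For ChT it was -0.03 (SE 0.05, edgeR quasi-likelihood adjusted p = 0.890), with a 95% interval from -8.84% to 5.61%. The median over the 5 genes was 0.13, and over all genes tested it was 0.00.

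Refed and sated brains were compared to set a glucose meal after a fast against ordinary feeding. Here too a difference in hour of dissection cannot be told apart from feeding state. No transporter passed edgeR's quasi-likelihood test, where 0.179% of the 8931 genes did, and DESeq2 called none. Kumpel alone had an unadjusted p-value under 0.05, as did 11.5% of all genes. It averaged 109 ± 3.90 CPM (SD, n = 3) in refed brains against 128 ± 9.84 CPM (SD, n = 3) in sated ones. The log2 fold change, refed over sated, was -0.25 (SE 0.06, edgeR quasi-likelihood adjusted p = 0.168), with a 95% interval from -23.4% to -7.09% for the gene alone.

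All refed libraries of kumpel were below all sated ones, an arrangement that 8.08% of the genes tested showed in that direction. The comparisons share samples, so the kumpel values of both rest on the same 3 sated libraries. Rumpel was at -0.15 and bumpel at -0.12 on the log2 scale in refed over sated brains, both with an SE of 0.08. SLC5A11 was at 0.07 (SE 0.10) and ChT at 0.02 (SE 0.05). Photoreceptor genes moved along with kumpel between these groups: the arrestin Arr1 and the channel gene trpl were lower in refed than in sated brains, at -0.52 (edgeR quasi-likelihood adjusted p = 0.0477) and -0.58 (adjusted p = 0.0473) on the log2 scale. Apolpp was at -0.78 (adjusted p = 0.0514). Their part in the values of kumpel was not tested.

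**Figure D2:**
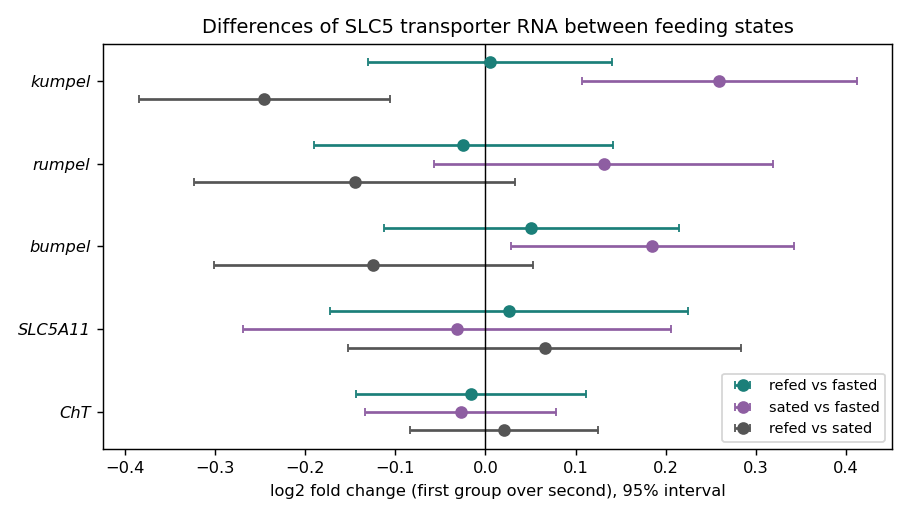
Log2 fold change (x axis) of each transporter gene (y axis) in the 3 comparisons, with bars for the 95% interval of each gene alone, not adjusted for the number of genes. The intervals of kumpel in sated over fasted and in refed over sated brains, and of bumpel in sated over fasted brains, do not reach 0, while those of SLC5A11 and ChT include 0 in all 3 comparisons.

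The glial transporters were also set against each other within libraries, where the scaling to depth cancels out. The ratio of kumpel to bumpel counts was 1.60 ± 0.160 (SD, n = 3) in refed, 1.73 ± 0.00873 (SD, n = 3) in sated and 1.64 ± 0.147 (SD, n = 3) in fasted brains. The ratio of kumpel to rumpel counts was 0.998 ± 0.0623 (SD, n = 3), 1.07 ± 0.169 (SD, n = 3) and 0.978 ± 0.127 (SD, n = 3) in the same order. These ratios overlapped between groups, so the proportions of the 3 transcripts could not be told apart between feeding states at this depth and number of samples. Kumpel, rumpel and bumpel summed to 286 ± 13.1 CPM (SD, n = 3) in refed, 323 ± 14.4 CPM (SD, n = 3) in sated and 281 ± 8.85 CPM (SD, n = 3) in fasted brains. The sum of each sated library, 306, 332 and 330 CPM, was above that of every refed and fasted library. Kumpel, a part of the sum, had this arrangement alone, while rumpel overlapped in every comparison. The sum is therefore no separate evidence. In whole brain tissue, a lower level from fewer cells of a type and one from less RNA per cell cannot be told apart.

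Across genes, levels can be compared only per length. Per kilobase of merged exon, ChT was at 114 ± 4.91 RPKM (SD over the 9 libraries), rumpel at 44.2 ± 3.97, bumpel at 34.7 ± 2.87, kumpel at 13.7 ± 1.46 and SLC5A11 at 10.4 ± 0.772 RPKM. Each gene was above the next in 9 of 9 libraries, but the ranges of rumpel and bumpel over the libraries overlapped. Ranked by RPKM among 9140 genes, ChT stood at the 96.4th percentile, rumpel at 86.7, bumpel at 81.7, kumpel at 58.4 and SLC5A11 at 50.4.

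The place of kumpel depended on the length used. Divided by its longest transcript of 2561 bases rather than by its 8363 bases of merged exon, kumpel was at 44.7 per kilobase, next to the 44.2 of rumpel. With coding length alone, ChT was at 295 per kilobase, rumpel at 62.7, kumpel at 54.7, bumpel at 39.3 and SLC5A11 at 15.4. ChT was the highest and SLC5A11 the lowest under all 3 lengths.

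**Figure D3:**
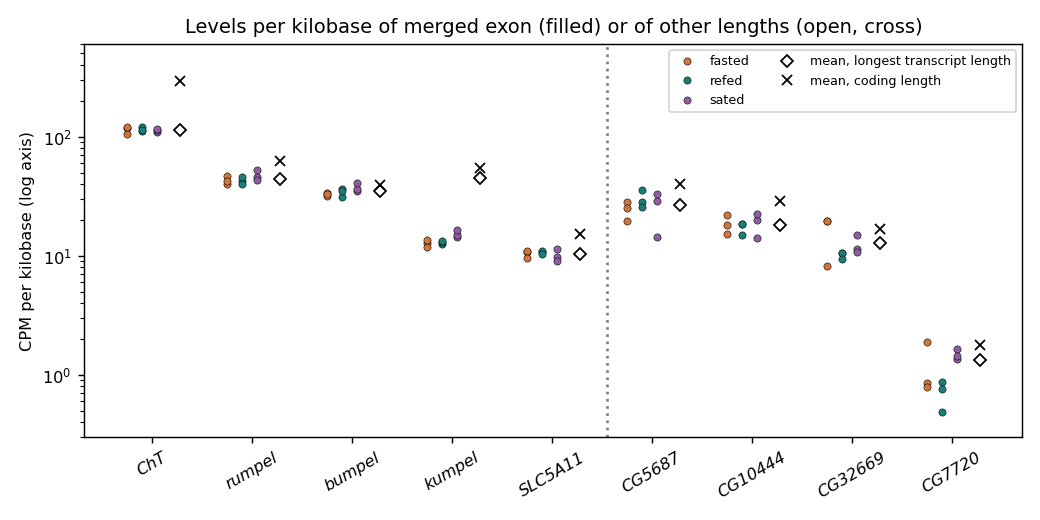
CPM per kilobase (y axis, log scale) of the 5 transporter genes and, right of the dotted line, of the 4 other SLC5 genes tested, with filled points for the 9 libraries per kilobase of merged exon, an open diamond for the mean with the longest transcript and a cross for the mean with the coding length. Kumpel moves from 13.7 to 44.7 per kilobase with its longest transcript, while ChT is the highest and SLC5A11 the lowest of the 5 with each length, and the points of CG32669 are those of its minor strand.

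Among the 5 members SLC5A11 had the highest opposite-strand share. Its opposite-strand counts made up between 21.6% and 31.7% of its stranded counts in every library. For the other members this share was between 2.28% and 7.91% in the 6 libraries with a low share over all genes, and between 9.36% and 19.8% in the 3 libraries with a high one. The share of SLC5A11 in those 3 libraries, 27.2% to 30.6%, lay within its range in the others. Its opposite-strand reads numbered between 52 and 93 per library.

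Where strand is not used, reads on exons of more than 1 gene are left out of the gene counts, and SLC5A11 shares exon positions with asRNA:CR44119 and PGAP5. Its unstranded count was between 45.2% and 62.3% of the count on its own strand, while for the other members it was between 102% and 125%. In CPM from unstranded counts SLC5A11 was at 13.5 in refed, 11.8 in sated and 12.2 in fasted brains, against 28.4, 26.9 and 27.7 on its own strand. SLC5A11 was called in no comparison of feeding states under either count.

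**Figure D4:**
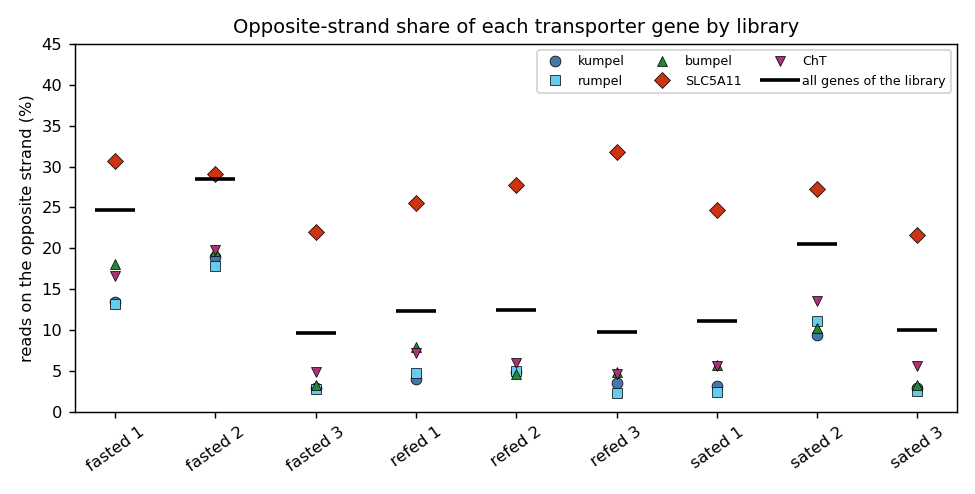
Percent of each transporter gene's stranded counts on the opposite strand (y axis) in the 9 libraries (x axis), with a bar for all genes of a library. SLC5A11 lies between 21.6% and 31.7% in every library, and the other members reach 9.36% to 19.8% only in sated replicate 2 and fasted replicates 1 and 2.

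Of 10 other annotated SLC5 genes, 4 had enough counts for the test. They were CG5687 with a mean of 82.5 CPM, CG10444 with 50.7, CG32669 with 30.5 and CG7720 with 3.67 CPM. For CG32669 this is the minor strand, with 153 to 251 counts per library against 707 to 1101 on the opposite strand, or 75.1% to 87.8% of its stranded counts, a share above that of SLC5A11. The remaining 6, salt, Smvt, CG2187, CG31262, CG31668 and CG33124, had between 1 and 8 counts each over all 9 libraries. With edgeR's quasi-likelihood test, 0 of the 4 were called in any comparison, and DESeq2 called 0. Without adjustment 2 of them, CG7720 and CG32669, had a p-value under 0.05 in refed against sated brains, where 11.5% of all genes did. None did so in the other comparisons.

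CG7720 was at 2.85, 1.58 and 2.47 CPM in refed, 4.48, 5.41 and 4.72 CPM in sated and 2.77, 6.21 and 2.56 CPM in fasted libraries, from 12 to 37 counts. Its refed libraries were all below the sated ones, by -1.08 on the log2 scale (SE 0.27, edgeR quasi-likelihood adjusted p = 0.163). This arrangement was found for 8.08% of all genes tested. For CG32669 the fasted libraries 1, 2 and 3 gave 46.3, 46.9 and 19.6 CPM, against 22.5 to 25.2 CPM in refed and 25.5 to 35.8 CPM in sated ones. Both high fasted values came from libraries with a high opposite-strand share, and the highest sated value from sated replicate 2. Without fasted replicate 3, CG32669 was called lower in refed than in fasted brains (log2 fold change -0.96, edgeR quasi-likelihood adjusted p = 0.00265). That fit kept fasted replicates 1 and 2, the fasted libraries with a high opposite-strand share. In CPM from unstranded counts CG32669 was at 13.2 in refed, 11.7 in sated and 11.9 in fasted brains, so fasted brains were not higher there. CG5687 had its lowest values, 44.7 and 60.7 CPM, in sated replicate 2 and fasted replicate 2. The part of the opposite-strand share in these values was not tested.

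The other genes of the acetylcholine cycle were read beside ChT. Of ChT, ChAT (the enzyme that makes acetylcholine), VAChT (its vesicular transporter) and Ace (the esterase that breaks it down), 0 of 4 were called in any comparison by edgeR's quasi-likelihood test or DESeq2, and none had an unadjusted p-value under 0.05. ChAT was at 225 CPM in refed, 227 in sated and 225 in fasted brains. On the log2 scale the 4 genes lay between -0.03 and -0.01 in refed over fasted and between -0.03 and 0.09 in sated over fasted brains. The 0.09 was that of VAChT, whose groups overlapped. The ratio of ChT to ChAT counts was 2.43 ± 0.156 (SD, n = 3) in refed, 2.37 ± 0.0698 (SD, n = 3) in sated and 2.43 ± 0.169 (SD, n = 3) in fasted brains. KCNQ, the channel on which SLC5A11 is known to act, was at 51.7, 53.7 and 53.3 CPM in refed, sated and fasted brains, and was called by neither tool.

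The sodium pump was measured through Atpalpha, its catalytic subunit, and the beta subunits nrv1, nrv2 and nrv3. With edgeR's quasi-likelihood test at the main settings 0 of 4 were called in any comparison. In sated over fasted brains 3 of the 4 had an unadjusted p-value under 0.05, all with positive values, against 9.72% of all genes in either direction. DESeq2 called 2, nrv2 and nrv3. Nrv2 was at 847, 894 and 854 CPM in sated and 719, 783 and 748 CPM in fasted libraries. These did not overlap, and 7.69% of all genes tested had sated libraries all above fasted ones. The log2 fold change of nrv2 was 0.20 (SE 0.04, edgeR quasi-likelihood adjusted p = 0.0930). Nrv2 did pass the same test without a filter (adjusted p = 0.0429), with robust empirical Bayes (0.0340), with the opposite-strand share as covariate (0.0230) and with the replicate number as a block (0.0307). Atpalpha was at 0.11 and nrv3 at 0.14, while nrv1, the least abundant with a mean of 13.9 CPM, was at -0.22 (SE 0.19). In refed over fasted brains Atpalpha was at 0.00 and nrv2 at 0.03. Nrv1 was at -0.47 (SE 0.16, edgeR quasi-likelihood adjusted p = 0.705). It was the one of the 4 with an unadjusted p-value under 0.05, against 6.77% of all genes, and DESeq2 called none.

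Genes of glial subtypes were read beside kumpel, rumpel and bumpel. Of 12, 0 were called in any comparison by edgeR's quasi-likelihood test at the main settings. Without adjustment 2 had a p-value under 0.05 in refed against fasted, 3 in sated against fasted and 3 in refed against sated brains. Over all genes tested the shares were 6.77%, 9.72% and 11.5% in the same order. DESeq2 called Gat in both comparisons with sated brains. Gat, a GABA transporter of glia, was at 394, 431 and 370 CPM in sated, 322, 359 and 348 CPM in fasted and 319, 265 and 312 CPM in refed libraries. Its sated libraries were above all others, where 7.69% of genes tested had sated above fasted and 8.08% had refed below sated libraries. The log2 fold change of Gat was 0.21 (SE 0.06, edgeR quasi-likelihood adjusted p = 0.264) in sated over fasted and -0.42 (SE 0.08, edgeR quasi-likelihood adjusted p = 0.0602) in refed over sated brains. In the latter it passed the same test without a filter (adjusted p = 0.00204), with all 9 samples in 1 fit (0.0420), with unstranded counts (0.0472) and without refed replicate 3 (0.0343).

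The 12 glial genes went both ways in sated over fasted brains, with 9 positive and 3 negative log2 fold changes. Eaat1, a glutamate transporter of glia, was the highest at 0.23 (SE 0.08), and wrapper, a gene of cortex glia, was at 0.18 (SE 0.06). Alrm, Eaat2 and zyd were at 0.01, Gs2 at -0.01, moody at -0.04 and Tret1-1 at -0.24. Repo, a transcription factor of nearly all glia, did not separate the groups, with 232, 247 and 265 CPM in sated and 231, 232 and 243 CPM in fasted libraries. The 12 glial genes had a median log2 fold change of 0.04 in sated over fasted brains. Kumpel was at 0.26, rumpel at 0.13 and bumpel at 0.19. Eaat1, Gli (0.21), Gat (0.21), Mdr65 (0.19) and wrapper lay within the range of these 3 values, and the rest of the 12 below it. Tret1-1, a trehalose transporter of the perineurial glia, was at -0.31 (SE 0.08, edgeR quasi-likelihood adjusted p = 0.674) in refed over fasted brains. Blocked by replicate number, edgeR's quasi-likelihood test called Eaat1 (0.23, adjusted p = 0.0367) and Tret1-1 (-0.24, adjusted p = 0.0440) in sated over fasted brains.

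**Figure D5:**
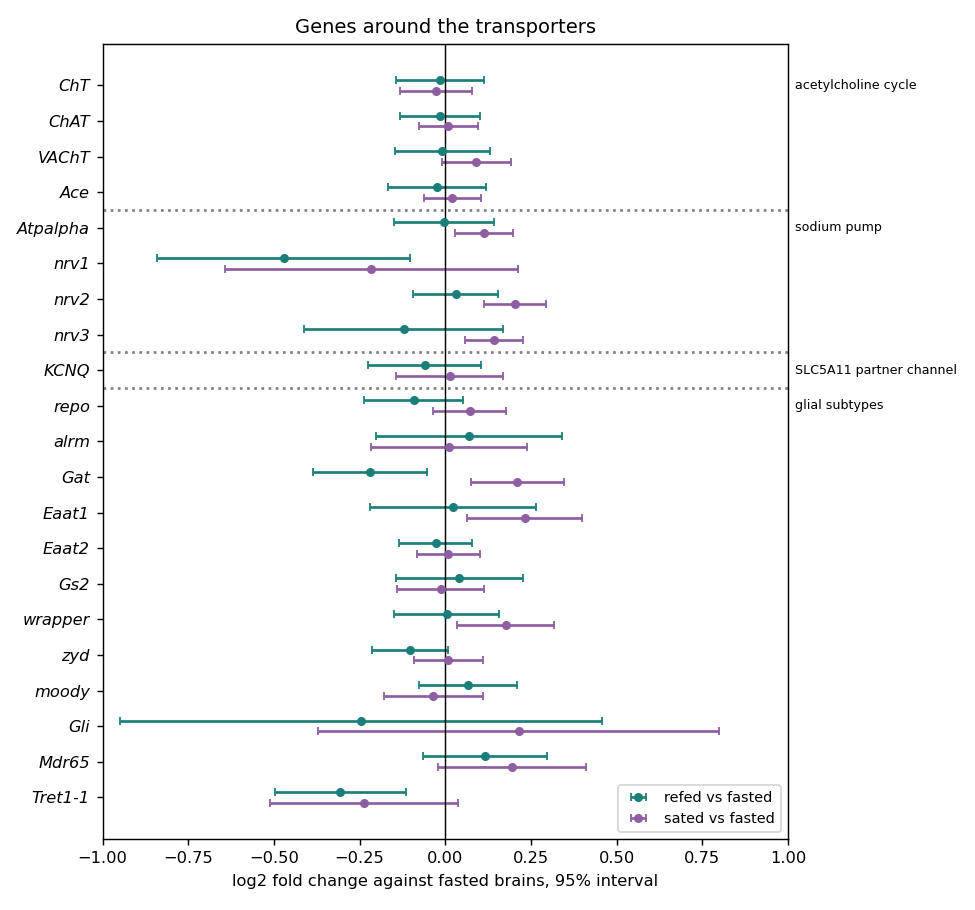
Log2 fold change against fasted brains (x axis) of genes of the acetylcholine cycle, the sodium pump, the channel KCNQ and glial subtypes (y axis), in refed and in sated brains, with the 95% interval of each gene alone. The acetylcholine genes lie between -0.03 and 0.09, and nrv2 lies at 0.20 in sated brains. None of these genes was called by edgeR's quasi-likelihood test at the main settings, while some alternatives called nrv2, nrv3, Gat, Eaat1 or Tret1-1.

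For each member the genes whose levels followed it most closely over the 9 libraries were listed, as a description across libraries that share their depth and strand balance. Among 5942 genes with at least 10 CPM, kumpel was closest to mmy (a UDP-N-acetylglucosamine enzyme, r = 0.95), ATPsynC (a subunit of the mitochondrial ATP synthase, r = 0.94) and Myd88 (an adaptor of Toll receptors, r = 0.92). Rumpel was closest to Pdfr, the receptor of the clock neuropeptide PDF (r = 0.91), CG7084 (r = 0.90) and the aldolase Ald1 (r = 0.89). Bumpel was closest to Tim8 (r = 0.91), Sf3b3 (r = 0.89) and Sms (r = 0.89).

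SLC5A11 was closest to CG4619 (r = 0.92), AlaRS-m (r = 0.89) and Dg (r = 0.89). ChT was closest to CG2269 (r = 0.92), CG31760 (r = 0.90) and the prohormone convertase amon (r = 0.90). Among the members themselves, kumpel and bumpel had the highest correlation, with r = 0.66, which placed bumpel at rank 291 of 5941 genes for kumpel. Rumpel had r = 0.28 with kumpel and 0.41 with bumpel, and ChT and rumpel had r = -0.59. All of these are correlations over 9 libraries in 3 groups.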

How the data were processed

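The authors aligned reads with STAR and deposited, for each of 9 libraries, whole-number counts per gene without strand and for each strand. The submitters' processing notes name the BDGP6 build, SAMtools 1.4, HTSeq and DESeq2 1.18.0. No STAR version is given in the sources used here. The strand column holding most gene counts was used. Lines naming no gene held between 42.5% and 60.3% of its reads and were left out. The analysis used edgeR 4.0.16 (R 4.3.3): filterByExpr, TMM, the quasi-likelihood test on the 6 samples compared, and Benjamini-Hochberg adjustment over all genes tested at a threshold of 0.05. Each SE is the size of the log2 fold change over the root of its F value. CPM used TMM over all 9 samples. With 3 against 3 samples, a permutation test cannot go below a two-sided p of 0.1 and was not used. Replicates are separate pools of 10 brains. The p-values weigh the difference of groups against the spread between these pools, as moderated across genes. Replicate pairs differed by more than sampling noise. The procedures were tested on simulated data. Gene names and positions come from the Ensembl release 115 annotation of BDGP6, in which 17215 identifiers of the files were found, and VAChT and wupA were matched through an older identifier. Named were the members, the other SLC5 genes, the lists above, and the 3 genes with the highest Pearson correlation of log2 CPM (prior count 2, mean of at least 10 CPM). The members and lists were chosen with earlier results of these data known. Alternatives were DESeq2 1.42.0, other normalizations and filters, 1 fit of all samples, a replicate block, unstranded counts, the opposite-strand share as covariate, robust empirical Bayes, leaving out libraries above 20% opposite-strand share, and leaving out each library.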

Additional observations from a re-analysis of the deposited data

Results flagged for a closer look

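Counts on the strand opposite to SLC5A11 belong to no comparison of the text and, scaled as CPM to the opposite-strand total, separated refed from fasted brains. They were at 69.8, 78.8 and 123 in refed libraries, with a mean of 90.6, and at 38.8, 30.4 and 66.9 in fasted libraries, so that all refed values were higher. The highest fasted value came from fasted replicate 3, the fasted library with a low opposite-strand share, and the other fasted libraries had more opposite-strand counts to scale by. Scaled as CPM to the gene-strand total instead, the values were 9.82, 11.2 and 13.3 in refed and 12.7, 12.1 and 7.10 in fasted libraries, and the groups overlapped. The lowest refed value, 69.8, was close to the highest fasted value, 66.9, under the first scaling. The share of all genes whose opposite-strand counts separated these groups was not counted, and the difference was not tested.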

How the results depend on the processing

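The direction of kumpel, rumpel and bumpel was positive in sated over fasted and negative in refed over sated brains under all 17 alternatives, and kumpel in sated over fasted brains with DESeq2 was the only call. In refed over fasted brains, values near 0 changed sign: kumpel to -0.070 with the opposite-strand share as covariate and to -0.073 without the libraries above 20% opposite-strand share, rumpel to 0.0098 and 0.015, and ChT to 0.0043 without a filter. Leaving out 1 library at a time gave -0.035 to 0.065 for kumpel, -0.070 to 0.045 for rumpel, -0.061 to 0.029 for ChT and -0.034 to 0.076 for SLC5A11 in this comparison. SLC5A11 in sated over fasted brains moved from -0.03 to 0.16 without the libraries above 20%, and lay between -0.13 and 0.034 with 1 library left out, ChT between -0.082 and 0.0034, and ChT in refed over sated brains between -0.0079 and 0.040. Without a change of sign, SLC5A11 in refed over fasted brains moved from 0.03 to 0.14 with unstranded counts, 0.14 with the covariate and 0.16 without the libraries above 20%, and in refed over sated brains from 0.07 to 0.18 with unstranded counts. The cause was not tested.

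Counts of genes called over the whole table moved with the processing. For refed against fasted brains, with 10 calls, there were 28 with DESeq2, 31 without a filter, 20 with unstranded counts, 6 with the covariate and 6 without the libraries above 20%. Leaving out 1 library gave 2 to 264 calls, with 264 without fasted replicate 3 and 2 to 5 without any other. For sated against fasted brains, with 24 calls, 4 of them higher, there were 110 with DESeq2 (50 higher), 75 without a filter (33 higher), 55 with unstranded counts (14 higher), 65 with the covariate (30 higher), 65 with robust empirical Bayes (23 higher) and 4 without the libraries above 20% (3 higher). Leaving out 1 library gave 5 to 30, with 5, 14 and 10 without sated replicates 1, 2 and 3, and 6 without fasted replicate 1. For refed against sated brains, with 16 calls, there were 51 with DESeq2, 25 with upper-quartile normalization, 121 without a filter, 7 with at least 10 counts in every sample, 53 with all 9 samples in 1 fit, 41 with unstranded counts and 34 with robust empirical Bayes. Leaving out 1 library gave 2 to 75, with 75 without refed replicate 3, 7 and 5 without refed replicates 1 and 2, and 2 and 7 without sated replicates 1 and 3. The ratio of ChT to SLC5A11 per kilobase, as the mean of the ratios in the 9 libraries, was 11.05, and it was 23.8 with unstranded counts, 19.3 with coding length and 10.8 to 11.2 with 1 library left out.

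Nothing in the labels ties samples of the same number together. Deviations of same-numbered samples correlated at 0.03, 0.00 and 0.18 between refed and fasted, 0.08, 0.39 and 0.40 between sated and fasted and -0.11, 0.00 and -0.02 between refed and sated samples. With the replicate number as a block, 6, 72 and 11 genes were called in these comparisons (none of them a member), and kumpel in sated over fasted brains had an adjusted p of 0.0575 with edgeR's quasi-likelihood test.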
